A study of Mus musculus with 3 samples.

Results

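The 7 genes Nodal, Gdf1, Cfc1, Tdgf1, Dand5, Lefty1 and Lefty2 were examined in single-cell RNA-seq of mouse embryos, out of 31054 features in the count matrices. They were chosen by name as the ligands, coreceptors and secreted antagonists of Nodal signalling, and all 7 symbols were found once in the feature lists. The question was in which cells of the early embryo each of them was measured, and whether the cells of the left-right organizer (LRO, the ciliated pit also called the node) differed from other lineages.

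Nodal is a secreted ligand of the TGF-β superfamily. It binds activin receptors only together with an EGF-CFC coreceptor, Cfc1 (Cryptic) or Tdgf1 (Cripto), and the activated receptors phosphorylate Smad2 and Smad3. Gdf1 is a partner ligand that forms heterodimers with Nodal. Dand5 (Cerl2), Lefty1 and Lefty2 are secreted antagonists. In the LRO, crown cells at the edge make Nodal and Dand5, cilia-driven flow lowers Dand5 on the left, and Nodal signalling is then switched on in the left lateral plate, where Lefty2 is a known target, while Lefty1 is known for its place at the midline. The cells here were dissociated from whole embryos, so left and right cannot be told apart.

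The data came from 3 embryos labelled wild-type, at embryonic day 8, on a C57BL/6 x 129 SvEv background. The sample labels give 0 to 2 somites and the protocol 0 to 1. Each embryo was dissociated on its own after removal of extraembryonic tissue, and gave 1 library made with 10x 3′ chemistry, so the embryo was the replicate (n = 3). There was no treated or mutant group, and comparisons were made between cell classes of the same embryos. The counts are unique molecular identifiers (UMIs), each standing for 1 captured RNA molecule.

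The matrices held 23533 barcodes, and 21595 cells were kept (5795, 7956 and 7844 in embryos 1, 2 and 3), with medians of 27635, 14615 and 16332.5 UMIs per cell. A cell was taken as an LRO cell when at least 4 of 6 marker genes (Foxj1, Noto, Pifo, Fam183b, Cfap126 and 1110017D15Rik) had a UMI. This gave 263 LRO cells (77, 78 and 108). Each of the 6 markers had a UMI in 77.6% to 98.9% of LRO cells and in 0.389% to 3.46% of the other kept cells. A further 17 classes were set by marker UMIs and are called after the lineage whose markers they carry (cardiac-mesoderm-like and so on), and 6183 cells reached no class or several and stayed unassigned. No member of the Nodal set was used as a marker. Erythroid-like cells numbered 0, 819 and 231 and extraembryonic-endoderm-like cells 288, 1275 and 996 in the 3 embryos. Primordial-germ-cell-like cells numbered 10, 7 and 21, and the sum of embryo 2 was left out there because it held fewer than 10 cells. Across the 3 libraries 57 barcodes were shared by at least 2 libraries, and 2 LRO cells carried one of them.

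The reporter EGFP, which the alignment reference contained, was measured in LRO cells of 2 of the 3 libraries labelled wild-type. In embryo 1, 18 of the 77 LRO cells carried it (23.4%), and in embryo 3, 19 of the 108 (17.6%). In embryo 2 it had none in 78 LRO cells, which allows a share of cells with a UMI of up to 3.85%. The LRO cells of embryo 2 were also the shallowest, with a median of about 18300 UMIs per cell against about 29800 and 28130 in embryos 1 and 3. Outside the LRO it was seen in 2 of 5718, 0 of 7878 and 2 of 7736 cells. The study describes a FOXJ1-EGFP line only for its sorted cells. The values of the members are therefore given for each embryo, and calls that were lost without an embryo are named, one by one or, for the lower levels of Nodal and Dand5 outside the LRO, as a count. A test on embryo 2 alone was not possible.

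**Figure D1:**
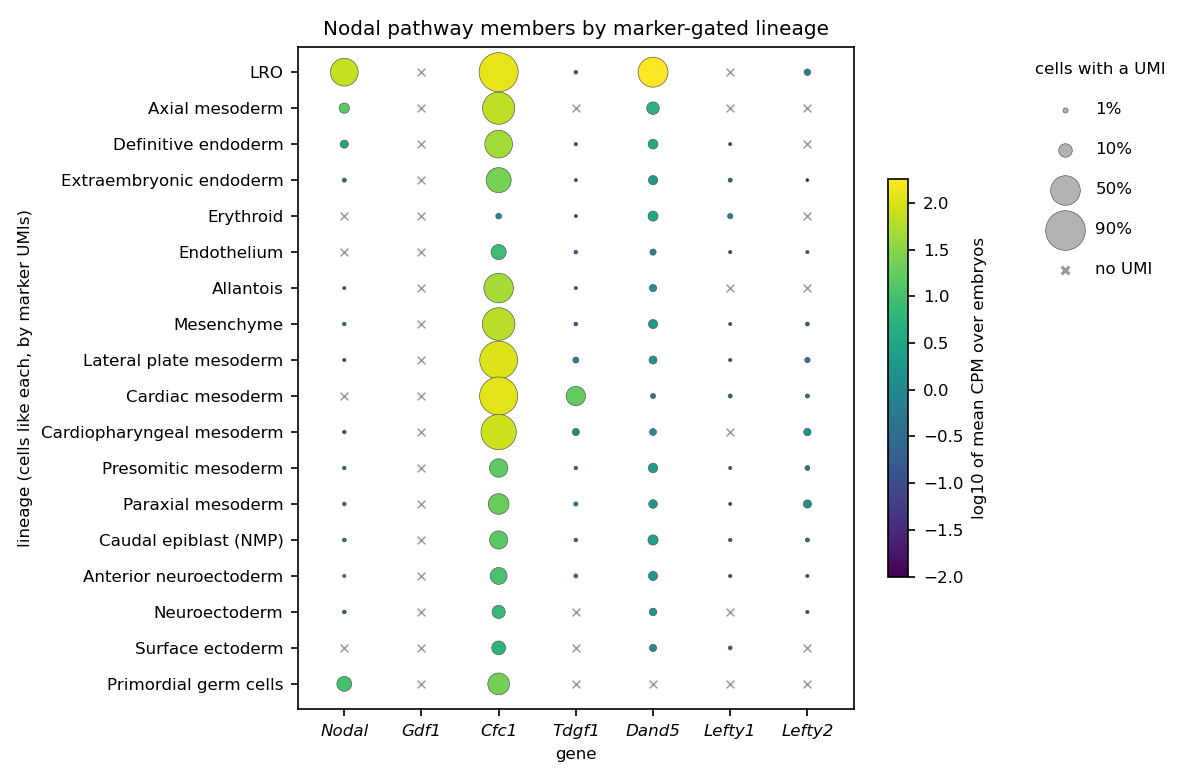
Each dot is 1 of the 7 genes (x axis) in the cells of 1 marker-gated lineage (y axis). Dot area grows with the mean share of cells with a UMI over embryos, colour gives the log10 of the mean CPM, and crosses mark no UMI. Cfc1 was measured in all 18 lineages, Nodal and Dand5 were highest in the LRO, Tdgf1 in cardiac-mesoderm-like cells, and Gdf1 had no UMI.

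The ligands are described first. Nodal (ENSMUSG00000037171, GRCm38 chr10:61417972-61425338, plus strand) reached 124.8, 43.0 and 54.5 UMIs per 1000000 UMIs (CPM) in LRO cells of embryos 1, 2 and 3, a mean of 74.1 ± 44.3 (SD, n = 3), with a UMI in 43.9% of the cells. Embryo 1 was the highest and the other 2 lay close together. Of the 736 Nodal UMIs in kept cells, 596 (81.0%) were in LRO cells. LRO cells were compared with all other cells by edgeR's quasi-likelihood test on the sums per embryo, with Benjamini-Hochberg adjustment over 15823 genes. Nodal rose by a log2 fold change of 7.94 (SE 0.422, adjusted p = 5.82e-07).

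Outside the LRO, Nodal was rare and uneven. In definitive-endoderm-like cells it was 1.16, 2.27 and 5.17 CPM (30 of 930 cells), and 7 of those 30 cells carried 2 or 3 LRO markers and held 23 of the 49 UMIs. In axial-mesoderm-like cells, which carry Foxa2, T and Shh and were allowed at most 1 LRO marker, it was 0, 1.99 and 45.9 CPM, and the value of embryo 3 came from 2 of 14 cells. Primordial-germ-cell-like cells had 8.42 and 10.5 CPM in the 2 embryos with enough cells, from 4 of 31 cells. No Nodal UMI was found in 1050 erythroid-like, 711 endothelium-like or 337 cardiac-mesoderm-like cells. LRO cells exceeded axial-mesoderm-like cells by 3.33 (log2, SE 0.753, edgeR adjusted p = 0.00789), where Nodal passed the filter on low counts through the LRO sums. With no filter it was called as well (3.37, edgeR adjusted p = 2.36e-17). The embryo values are the same there, so the far smaller p is not further support. The call was lost without embryo 1 (1.99, adjusted p = 0.0576), without embryo 2 (2.90, adjusted p = 0.196) and with DESeq2 (2.33, adjusted p = 0.617).

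Gdf1 (ENSMUSG00000109523, GRCm38 chr8:70329817-70331587, plus strand) had 0 UMIs in all 23533 barcodes. Its 2 exon blocks (chr8:70329817-70330276 and chr8:70330699-70331587) hold 1349 bases, and every one of them lies inside exons of Cers1, a ceramide synthase gene transcribed from the same strand (chr8:70315775-70331592). Of the 451 stretches of 50 bases in the last 500 bases of the Gdf1 transcript, the part that a 3′ library reads, 451 also occur in Cers1. A read from Gdf1 mRNA cannot be told apart from a read of Cers1 by its sequence. Cers1 itself had 49 UMIs in 49 barcodes, 1 of them in an LRO cell. Other nested genes were often at 0 as well. Of 130 genes whose exon bases all lie inside exons of other listed genes on the same strand, 107 (82.3%) had 0 UMIs, against 7318 of 29710 genes (24.6%) that share no exon base. The 0 of Gdf1 therefore says nothing about the amount of Gdf1 RNA in these embryos.

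RefSeq (GRCm38.p6) gives the first Gdf1 transcript the start of Cers1, so both have the same promoter window of 250 bases before and 50 after the start. That window is printed here because it is shared, and the windows of the coreceptors Cfc1 and Tdgf1 because the lineage results turn on these genes. They lie at chr8:70315525-70315824 (plus strand), chr1:34535398-34535697 (plus strand) and chr9:110946109-110946408 (minus strand), written 5′ to 3′. Capitals mark CAGAC or its reverse complement GTCTG, the letters of the SMAD box.
Gdf1 and Cers1: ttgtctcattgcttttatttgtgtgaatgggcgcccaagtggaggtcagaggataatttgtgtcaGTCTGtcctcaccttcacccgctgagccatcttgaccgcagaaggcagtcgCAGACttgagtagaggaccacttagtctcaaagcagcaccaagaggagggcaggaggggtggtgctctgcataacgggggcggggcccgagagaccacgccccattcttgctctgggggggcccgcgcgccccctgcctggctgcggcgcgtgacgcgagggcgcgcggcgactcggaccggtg
Cfc1: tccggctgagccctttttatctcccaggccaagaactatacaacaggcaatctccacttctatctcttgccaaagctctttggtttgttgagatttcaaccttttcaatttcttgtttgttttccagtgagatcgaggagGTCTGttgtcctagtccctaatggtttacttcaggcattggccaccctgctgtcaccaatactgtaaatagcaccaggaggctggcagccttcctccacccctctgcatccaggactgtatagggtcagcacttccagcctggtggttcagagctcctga
Tdgf1: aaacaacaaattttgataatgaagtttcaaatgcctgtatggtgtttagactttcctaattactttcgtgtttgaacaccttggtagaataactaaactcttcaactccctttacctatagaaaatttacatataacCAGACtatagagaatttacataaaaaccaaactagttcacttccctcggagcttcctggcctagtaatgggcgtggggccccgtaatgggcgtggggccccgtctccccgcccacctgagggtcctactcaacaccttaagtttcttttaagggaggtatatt
The SMAD box was searched on both strands. RefSeq windows were found for 5 of the 7 members. The SMAD box matched 2 times in the shared Gdf1 and Cers1 window and 1 time in a second Gdf1 window, 1 time each in those of Cfc1 and Tdgf1, 2 times in that of Dand5 and 0 times in that of Nodal. Of all 32851 RefSeq windows of this length, 49.6% hold it, so a match is common. AATNCACA (a FOXH1 motif, in 3.6% of all windows), GTGGGAA (an RBPJ motif, 6.38%) and GTAAACA (a forkhead motif, 3.65%) had no match in the windows of these 5 members. Matches are a description of letters and say nothing about binding.

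Of the coreceptors, Cfc1 was broad and Tdgf1 narrow. Cfc1 (ENSMUSG00000026124, GRCm38 chr1:34535648-34544313, plus strand, with the gene Prss40 on the opposite strand) had 16520 UMIs in 7385 kept cells. In LRO cells it was 140.8, 118.9 and 110.8 CPM (123.5 ± 15.5, n = 3), with a UMI in 90.9%, 87.2% and 84.3% of the cells. The 3 embryos lay close together and none was low.

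LRO cells were 263 of the 21595 kept cells and held 5.84% of all Cfc1 UMIs. Unassigned cells held 32.2% of them at a lower level (32.6 CPM), and mesenchyme-like cells 15.6%. The cardiac and lateral plate classes, with levels near that of the LRO, held 4.24% and 9.73%. Cardiac-mesoderm-like cells had 104.3, 103.0 and 140.5 CPM (115.9 ± 21.3), and lateral-plate-mesoderm-like cells had 113.2, 90.3 and 113.9 CPM (105.8 ± 13.4). The values of the LRO, cardiac and lateral plate classes overlapped, and their order was not resolved. Cardiopharyngeal-mesoderm-like cells followed at 83.7 ± 6.24 CPM and overlapped with the lateral plate class. Next came axial-mesoderm-like cells at 63.5, 67.6 and 72.2 CPM, below the cardiopharyngeal class in each embryo, and mesenchyme-like cells at 62.7 ± 9.74 CPM, which overlapped with the axial class.

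The lower part of the order ran through allantois-like (47.2 ± 7.82 CPM), definitive-endoderm-like (45.7 ± 2.29) and extraembryonic-endoderm-like cells (24.3 ± 6.09). Primordial-germ-cell-like cells of 2 embryos had 21.8 ± 18.9 CPM, from 9 of 31 cells. Paraxial (19.2 CPM), presomitic (16.0) and caudal-epiblast-like cells (14.5), and anterior neuroectoderm-like cells (10.8), came next. Endothelium-like (8.37 ± 2.88), neuroectoderm-like (7.05) and surface-ectoderm-like cells (5.69 ± 2.48) were lower still. The lowest level was 0.964 ± 0.280 CPM in erythroid-like cells of 2 embryos, where 1.44% of the cells had a UMI at a median of 15170.5 UMIs per cell. LRO cells had a median of 25916 UMIs per cell. With every cell thinned to 5000 UMIs and 11 shallower LRO cells left out, Cfc1 had a UMI in 47.3 ± 3.66% of LRO cells, 44.4% of cardiac-mesoderm-like, 39.8% of lateral-plate-mesoderm-like, 26.6% of axial-mesoderm-like and 0.306% of erythroid-like cells. The order of these classes by thinned share was the same as by CPM.

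**Figure D2:**
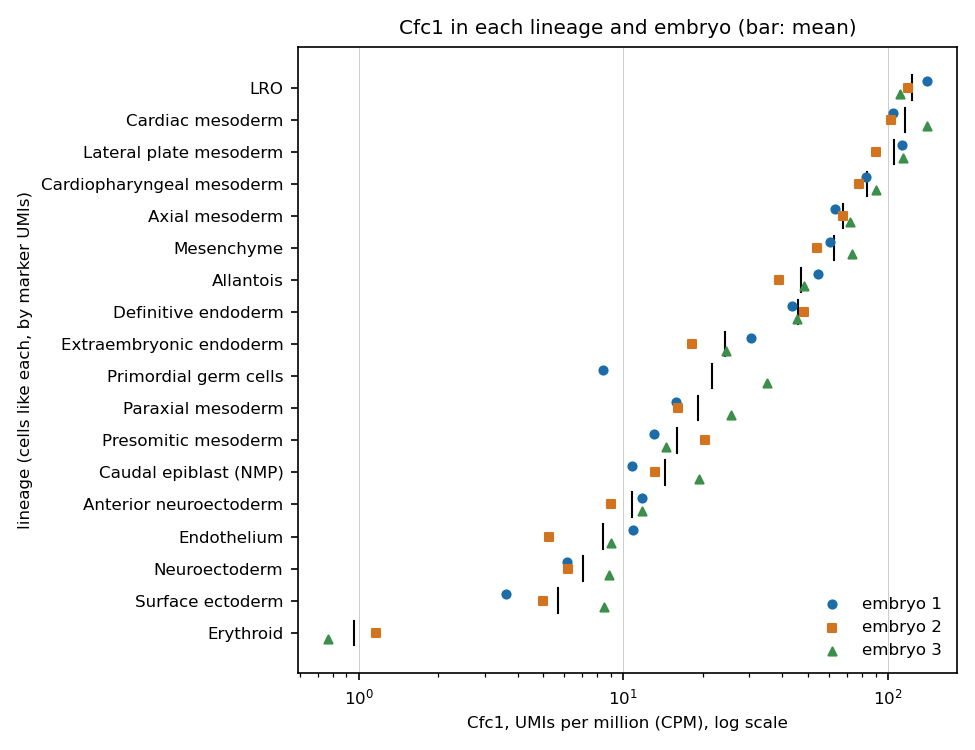
Cfc1 level in CPM (UMIs per 1000000 UMIs, log scale, x axis) in each lineage (y axis), with 1 symbol per embryo and a bar at the mean. Sums of fewer than 10 cells are not drawn. LRO, cardiac-mesoderm-like and lateral-plate-mesoderm-like cells lie together between 90.3 and 140.8 CPM, and erythroid-like cells lie near 1 CPM.

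In LRO cells Cfc1 rose by 1.89 against all other cells (log2, SE 0.122, edgeR adjusted p = 2.31e-06), and was called under each of the 14 alternatives, at 1.74 to 2.30. With Nodal and Dand5, 3 of the 5 members tested rose and none fell, against 11.2% of all genes tested that rose and 6.48% that fell. Tdgf1 (−1.85, adjusted p = 0.335) and Lefty2 (1.02, adjusted p = 0.348) did not pass, and Gdf1 and Lefty1 had too few UMIs to be tested. Against axial-mesoderm-like cells Cfc1 rose by 0.87 (SE 0.179, edgeR adjusted p = 0.00397), in a comparison where 5.37% of 8461 genes rose. The Cfc1 call was lost without embryo 1 (0.75, adjusted p = 0.063) or embryo 2 (0.93, adjusted p = 0.113). Axial-mesoderm-like cells numbered 18, 40 and 14.

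Each of the 17 other classes was then compared with all cells outside it. The 10 pairs of member and class that rose and 36 that fell, of 86 tested, are given by gene here. For Cfc1, 7 classes rose and 8 fell. The rise was largest in cardiac-mesoderm-like cells (log2 1.90, edgeR adjusted p = 1.38e-05), lateral-plate-mesoderm-like cells (1.82, adjusted p = 3.94e-05) and cardiopharyngeal-mesoderm-like cells (1.40, adjusted p = 3.73e-05). Mesenchyme-like (1.12), axial-mesoderm-like (0.94), allantois-like (0.51) and definitive-endoderm-like cells (0.47) also rose. The edgeR call in axial-mesoderm-like cells was lost without embryo 2 (adjusted p = 0.0920), that in definitive-endoderm-like cells without embryo 2 (adjusted p = 0.0981), and that in allantois-like cells without embryo 1 (adjusted p = 0.125) or embryo 3 (adjusted p = 0.0621). The calls in axial-mesoderm-like and allantois-like cells were also lost after thinning. The share of all genes that rose in these 7 comparisons was 5.94%, 3.62%, 3.09%, 13.7%, 3.2%, 8.5% and 17.3% in the same order.

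Cfc1 fell in erythroid-like (log2 −4.67), surface-ectoderm-like (−2.64), neuroectoderm-like (−2.26), endothelium-like (−1.94), anterior-neuroectoderm-like (−1.58), caudal-epiblast-like (−1.25), presomitic-mesoderm-like (−1.09) and paraxial-mesoderm-like cells (−0.80), where the highest edgeR adjusted p was 0.0160. The call in paraxial-mesoderm-like cells was lost without embryo 1 (adjusted p = 0.0857) or embryo 2 (adjusted p = 0.0856). The share of all genes that fell there was 35.2%, 6.23%, 12.9%, 22.5%, 13.5%, 14.1%, 10.3% and 10.9%. With the embryo as a replicate block, extraembryonic-endoderm-like cells were also called (−0.29, adjusted p = 0.0380), where 6221 of 15695 genes fell. The genes whose level was most like that of Cfc1 over 52 lineage sums were Cdkn1c, an inhibitor of the cell cycle (Pearson r = 0.844), the BMP ligand Bmp7 (0.809) and Usp29 (0.803). The sums of an embryo share a library and its depth, and no test was made.

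Tdgf1 (ENSMUSG00000032494, GRCm38 chr9:110939603-110946158, minus strand) had 214 UMIs in 161 kept cells, and 116 of them (54.2%) were in the 337 cardiac-mesoderm-like cells, which carry Tnnt2, Myl7, Nkx2-5 and other cardiac markers. There it was 20.2, 20.4 and 9.31 CPM in embryos 1, 2 and 3 (16.7 ± 6.35). The cells with a count were 21 of 68, 42 of 202 and 8 of 67, or 30.9%, 20.8% and 11.9%. Embryo 3 was the lowest on both scales. Up to 8 UMIs were counted in 1 cell. After thinning, 9.23% of the cells had a UMI.

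No other class came near. Cardiopharyngeal-mesoderm-like cells had 2.11, 0.869 and 0 CPM (8 of 268 cells) and lateral-plate-mesoderm-like cells 1.07, 0.229 and 0.969 CPM (11 of 723 cells). The lowest cardiac value lay above the highest value of each of these classes. In LRO cells Tdgf1 had 1 UMI in 263 cells, and in axial-mesoderm-like, neuroectoderm-like, surface-ectoderm-like and primordial-germ-cell-like cells it had none. Erythroid-like cells had 1 UMI in 1050 cells. Of the 35 unassigned cells with a Tdgf1 UMI, 8 had the cardiac marker list as their highest, out of 87 such cells (9.20%), and 9 had the cardiopharyngeal list as their highest, out of 396.

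In cardiac-mesoderm-like cells Tdgf1 rose by 6.52 against all other cells (log2, SE 0.376, edgeR adjusted p = 2.21e-06, 6.15 to 7.00 under the alternatives, each of them called), where 5.94% of all genes rose. It fell in extraembryonic-endoderm-like cells (−2.83, adjusted p = 0.00573), where 36.6% of all genes fell. With the replicate block it also fell in definitive-endoderm-like (−2.26, adjusted p = 0.0303), caudal-epiblast-like (−1.66, adjusted p = 0.0297), erythroid-like (−2.87, adjusted p = 0.0434) and neuroectoderm-like cells (adjusted p = 0.0245, with 0 UMIs there). In the same order, 3922 of 15869, 3382 of 15810, 5625 of 15669 and 3054 of 15648 genes fell with that block. The cells outside each of these classes include the cardiac-mesoderm-like cells, which hold 54.2% of the Tdgf1 UMIs. Of the stretches of 50 bases in the ends of Tdgf1 transcripts, 148 of 1795 also occur in the pseudogene Tdgf1-ps1.

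Cardiac-mesoderm-like cells with and without a Tdgf1 UMI were set side by side as a description. The myosin light chains Myl7 and Myl4 averaged 2967 against 2020 and 656 against 462 CPM, Tnnt2 (cardiac troponin T) 751 against 545, the cardiac actin Actc1 622 against 341, the myosin heavy chain Myh6 50.5 against 25.5 and the transcription factor Nkx2-5 167 against 129. Each was higher in the cells with Tdgf1 in 3 of 3 embryos. The troponin Tnni1 went the other way on average, at 197 against 225 CPM, and was higher with Tdgf1 in 2 of 3 embryos. Cells with Tdgf1 were also deeper in each embryo, at medians of 27427 against 24806, 14513 against 12054 and 16978 against 13513 UMIs. The part of depth in these differences was not tested. Cfc1 was 131 ± 59.5 against 115 ± 15.6 CPM and higher in 1 of 3 embryos. Over the 52 lineage sums, the genes most like Tdgf1 were Unc45b, a chaperone for muscle myosin (r = 0.956), Sphkap (0.942) and Lrrc10, which is expressed in heart muscle (0.932). They were rare genes too, with 417, 248 and 194 UMIs in all.

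**Figure D3:**
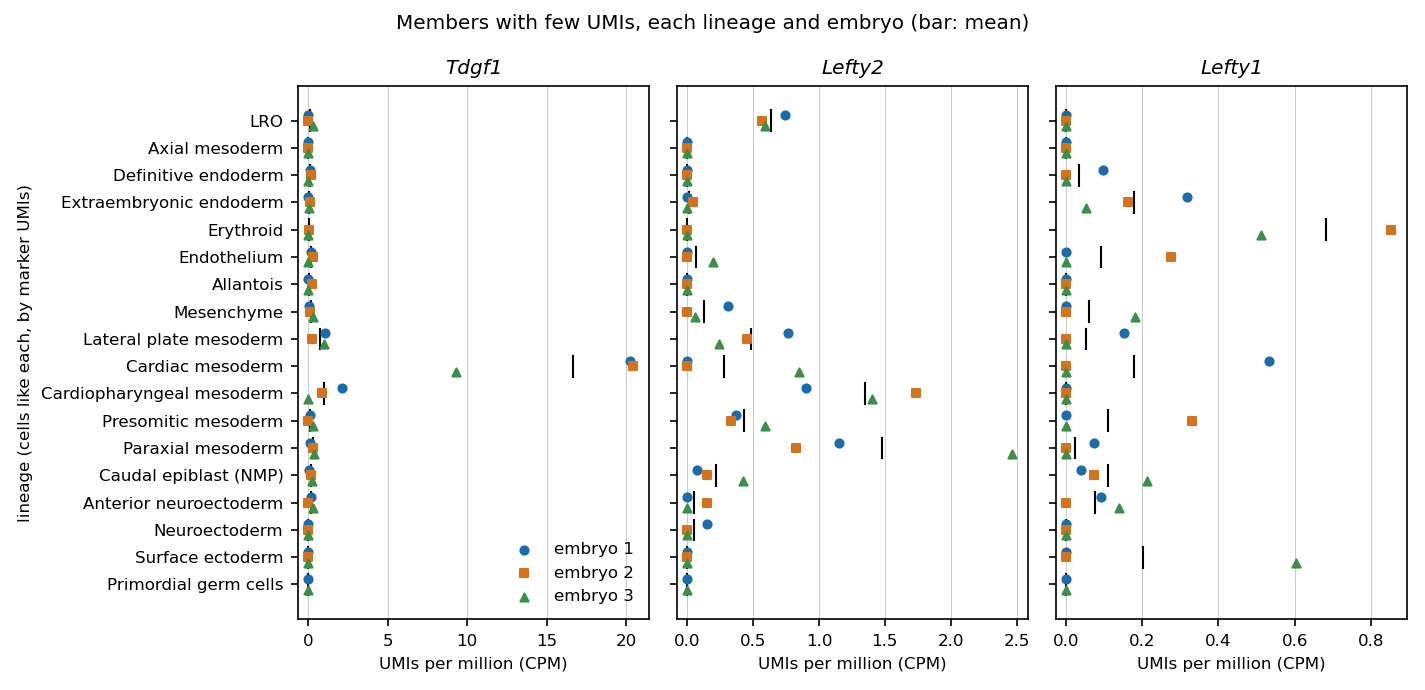
Level of Tdgf1, Lefty2 and Lefty1 in CPM (UMIs per 1000000 UMIs, x axis, a separate linear scale for each gene) in each lineage (y axis), with 1 symbol per embryo and a bar at the mean. Tdgf1 lies between 9.31 and 20.4 CPM in cardiac-mesoderm-like cells, Lefty2 reaches 2.46 CPM in paraxial-mesoderm-like cells and Lefty1 0.853 CPM in erythroid-like cells.

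Dand5, the antagonist made by crown cells (ENSMUSG00000053226, GRCm38 chr8:84815405-84822823, minus strand), was 262, 148 and 92.0 CPM in LRO cells (167 ± 86.8), with a UMI in 51.1% of the cells. It was 5.59 ± 1.21 CPM in axial-mesoderm-like cells and lower in each of the other classes. Dand5 rose in LRO cells by 6.31 against all other cells (log2, SE 0.356, edgeR adjusted p = 8.63e-07) and by 4.92 against axial-mesoderm-like cells (edgeR adjusted p = 2.60e-05). In the latter comparison it passed the filter on low counts through the LRO sums. With no filter it was called too (edgeR adjusted p = 4.56e-43), on the same embryo values, so the smaller p is not further support. A low share of cells with a Dand5 UMI was found in nearly every class, 5.25% of erythroid-like cells among them, mostly as 1 UMI per cell.

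Nodal fell in 12 and Dand5 in 13 of the 17 classes outside the LRO, where the cells outside a class include the LRO cells that hold most Nodal UMIs. The share of all genes that fell was 13.5% in allantois-like, 14.9% in mesenchyme-like, 9.06% in lateral-plate-mesoderm-like, 6.7% in cardiac-mesoderm-like and 5.62% in cardiopharyngeal-mesoderm-like cells, and is given with Cfc1, Tdgf1 and Lefty2 for the others. Of these calls, 9 for Nodal and 11 for Dand5 were lost when at least 1 of the embryos was left out. With LRO cells left out of that comparison, an alternative chosen after the data were seen, Nodal fell in 1 class and Dand5 in 0. Nodal then rose in 3, among them axial-mesoderm-like (log2 4.75) and definitive-endoderm-like cells (3.73), and Dand5 in erythroid-like cells (1.14). The axial value rests on 8 Nodal UMIs in 3 of 72 cells. The shares of all genes that rose or fell in these fits are not given here, so the counts are no result about the members. With the replicate block, edgeR called Nodal higher in axial-mesoderm-like cells (2.41, adjusted p = 0.0379, against 0.257 without it) and lower in cardiopharyngeal-mesoderm-like (−3.23, adjusted p = 0.0215) and anterior-neuroectoderm-like cells (−2.60, adjusted p = 0.0210). In the same order, 597 of 15261 genes rose, and 1625 of 15434 and 3347 of 15895 genes fell with that block.

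The Lefty genes were rare in all classes. Lefty1 (ENSMUSG00000038793, GRCm38 chr1:180935022-180938400, plus strand) had 54 UMIs in 54 kept cells, 1 in each. It had none in LRO cells, which allows a share of cells with a UMI of up to 3.90%, 3.85% and 2.78% in embryos 1, 2 and 3, and none in the 72 axial-mesoderm-like cells. At this depth a Lefty1 level in the midline classes was not detectable.

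The class with the most Lefty1 was erythroid-like, with a UMI in 11 of 819 cells of embryo 2 and 2 of 231 of embryo 3 (0.853 and 0.511 CPM). Extraembryonic-endoderm-like cells had 8 cells with a UMI of 2559, and unassigned cells 15 of 6183. Lefty1 passed the filter on low counts in the erythroid comparison only, through the erythroid-like sums, so its place among the 10 pairs that rose follows in part from the filter. It was 3.45 higher there (log2, SE 0.592, edgeR adjusted p = 5.35e-04, 2 embryos), where 27.3% of all genes rose. With no filter, Lefty1 was tested in each class and was called in erythroid-like cells alone (3.38, adjusted p = 1.22e-05), with 0.73 (adjusted p = 0.418) in extraembryonic-endoderm-like cells. The call rests on the same 13 UMIs, from 13 cells, so the smaller p is not further support. Each other assigned class held at most 8 Lefty1 UMIs, so the lack of a call there says little. The share of erythroid-like cells with Lefty1 was 1.10% on average, against 0.254% of all cells outside the LRO. After thinning the shares were 0.306 ± 0.433% (2 embryos) and 0.0298%, and Lefty1 was not among the pairs that rose. The part of free RNA in it was not tested.

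Lefty2 (ENSMUSG00000066652, GRCm38 chr1:180893108-180899103, plus strand) had 154 UMIs in 147 kept cells. Its highest level was in paraxial-mesoderm-like cells, which carry Tcf15 and Meox1, at 1.15, 0.826 and 2.46 CPM (1.48 ± 0.868), from 16 of 425, 5 of 330 and 14 of 283 cells. Cardiopharyngeal-mesoderm-like cells had 0.903, 1.74 and 1.40 CPM (7 of 268 cells). The values of these classes overlapped. Lateral-plate-mesoderm-like cells, the lineage in which Lefty2 is a known left-sided target, had 0.763, 0.457 and 0.242 CPM (8 of 723 cells), and LRO cells 0.745, 0.566 and 0.590 CPM (5 of 263 cells). None was found in axial-mesoderm-like, definitive-endoderm-like, erythroid-like, allantois-like, surface-ectoderm-like or primordial-germ-cell-like cells. The 1050 erythroid-like cells had a median of 15170.5 UMIs.

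In paraxial-mesoderm-like cells Lefty2 rose by 2.55 (log2, SE 0.456, edgeR adjusted p = 0.00557), where 6.4% of all genes rose. The call was lost without embryo 3 (adjusted p = 0.0574). In cardiopharyngeal-mesoderm-like cells it was 2.06 higher and did not pass with edgeR (adjusted p = 0.0928), while DESeq2 called it (2.11, adjusted p = 0.0304). It fell in extraembryonic-endoderm-like cells (−3.82, adjusted p = 0.00342) and in definitive-endoderm-like cells, where 0 UMIs were counted and 17.9% of all genes fell. The call in definitive-endoderm-like cells was lost without embryo 1 (edgeR adjusted p = 0.130) or embryo 3 (adjusted p = 0.0905). Of the 63 unassigned cells with a Lefty2 UMI, 14 had the paraxial list as their highest, 13 the lateral plate list and 11 the caudal epiblast list. The genes most like Lefty2 over the 52 sums were Gm12829 (r = 0.827), the transcription factor Ebf2 (0.812) and Abca9 (0.780). For Lefty1 they were Nxpe2 (0.683), Pdyn (0.681) and Ccrl2 (0.668).

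Lefty1 and Lefty2 are neighbours on chromosome 1 and near-identical in part. Of the stretches of 50 bases at the ends of their transcripts, 186 of 902 of Lefty1 also occur in Lefty2 and 120 of 824 of Lefty2 in Lefty1. Reads from these stretches cannot be assigned to 1 of the genes, so both levels are uncertain.

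LRO cells were also split by the crown-cell genes, to see whether the other members went with them. Each cell was thinned to 5000 UMIs, and 100 cells (39, 20 and 41) had a Nodal or Dand5 UMI and 152 (38, 49 and 65) had neither. At full depth, 17.8% of the cells without had a Nodal UMI and 25.7% a Dand5 UMI (14.3 and 22.2 CPM). The split therefore separates high from low levels and not presence from absence. Nodal and Dand5 made the split, so their differences in it are no result. Both stayed in the fit and are among the genes counted as higher there. Cfc1 was 134.1, 122.3 and 116.3 CPM in the cells with and 146.6, 104.3 and 106.4 CPM in those without. It was higher in 2 of 3 embryos and lower in embryo 1. The difference was 0.02 (log2, SE 0.155, edgeR adjusted p = 1.00, −0.26 to 0.25 under the alternatives). Of 9008 genes, 0.333% rose and 0% fell in this comparison, and 2.32% rose and 1.7% fell with the replicate block. Tdgf1 and Lefty1 had 0 UMIs in the cells with a crown-cell gene. Lefty2 was 0.564 against 0.625 CPM, too few UMIs to test.

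**Figure D4:**
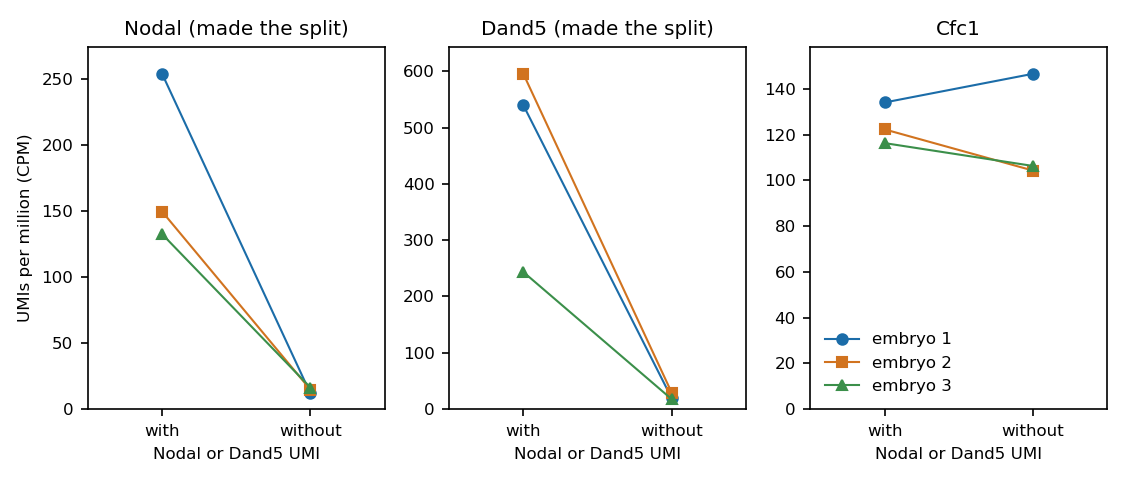
Level of Nodal, Dand5 and Cfc1 in CPM (UMIs per 1000000 UMIs, y axis, a separate scale for each gene) in LRO cells with and without a Nodal or Dand5 UMI after thinning (x axis), with 1 line per embryo. Nodal and Dand5 differ because they made the split, while Cfc1 lies between 104 and 147 CPM on both sides.

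Within the thinned LRO cells, Dand5 had a UMI in 69.8 ± 13.9% of cells with Nodal and 17.8 ± 5.53% of cells without it, higher in 3 of 3 embryos. Cfc1 had a UMI in 51.0 ± 3.16% of cells with Nodal and 46.3 ± 3.83% of those without, also higher in 3 of 3 embryos. It had one in 45.6% of cells with Dand5 and 47.9% of those without, higher with Dand5 in 1 of 3 embryos. The shares for Cfc1 lay close together, and those for Nodal and Dand5 far apart. At full depth, 40 of 77, 17 of 78 and 27 of 108 LRO cells had a UMI of exactly 3 members, and 4, 2 and 7 had none of the 7. At full depth Cfc1 had a UMI in 57.4% of the 47 cells with 3 LRO markers, just outside the gate, 60.9% of the 46 cells with 4 and 94.7% of the 152 cells with all 6, at medians of 32066, 23536 and 23714.5 UMIs per cell. After thinning to 5000 UMIs the shares were 20.0%, 28.9% and 54.4%.

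The rest of the pathway was read from a list of 24 genes for other ligands, convertases, receptors, transducers, inhibitors and targets. In LRO cells against all other cells, 21 were tested, 2 rose and 1 fell, against 11.2% and 6.48% of all genes, with a median log2 fold change of −0.02 (−0.05 over all genes). With the replicate block or with DESeq2, 4 rose and 1 fell. Of all 15823 genes, 2323 rose and 2491 fell with the block, and 2123 rose and 1279 fell with DESeq2. Furin, a convertase that cleaves the Nodal precursor, was 33.5, 24.4 and 22.4 CPM in LRO cells and 14.7, 17.6 and 17.3 elsewhere, and rose by 0.61 (log2, edgeR adjusted p = 0.0293). The T-box target Eomes was 7.08, 6.23 and 6.78 against 2.13, 2.19 and 2.88 CPM and rose by 1.41 (adjusted p = 0.00434). For both genes the groups did not overlap, but the genes were named because they passed on these same sums. Extraembryonic-endoderm-like cells had higher means than LRO cells, at 53.3 CPM for Furin and 8.21 CPM for Eomes.

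The inhibitory Smad7 was 13.4, 12.5 and 22.1 CPM in LRO cells and 28.7, 31.4 and 36.6 elsewhere, and fell by 1.04 on the log2 scale (edgeR adjusted p = 0.00872). The groups did not overlap, and the same limit holds. A low level was not particular to the LRO, whose mean of 16.0 CPM ranked 12 of 18 classes. Means were lower in axial (13.5), presomitic (15.2), paraxial (15.4), caudal-epiblast-like (14.9), anterior-neuroectoderm-like (11.1) and neuroectoderm-like cells (3.72). Against axial-mesoderm-like cells Smad7 did not pass (log2 0.49, edgeR adjusted p = 0.648). With the replicate block, the type II receptor Acvr2b (0.37, edgeR adjusted p = 4.79e-05) and the transducer Smad3 (0.64, adjusted p = 0.00224) also rose, with adjusted p of 0.0593 and 0.0573 without it. Acvr2b was 185.1, 163.1 and 146.8 CPM in LRO cells, and its mean of 165 was next to the highest, 166 ± 5.43 in cardiopharyngeal-mesoderm-like cells.

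Against axial-mesoderm-like cells 13 genes of the list were tested, none rose and 2 fell, against 5.37% and 3.18% of all genes. The secreted antagonist Cer1 was 12.3, 7.36 and 14.2 CPM in LRO cells and 291.9, 123.3 and 249.5 CPM in axial-mesoderm-like cells (log2 −4.20, edgeR adjusted p = 1.20e-07). Its LRO sums alone did not pass the filter on low counts, so Cer1 was tested because of the axial sums. Gsc, a homeobox gene of the prechordal plate, was 2.61, 1.13 and 2.95 against 48.6, 41.8 and 105 CPM (−4.50, edgeR adjusted p = 2.54e-06, and called at −4.46 with no filter), and it passed the filter on low counts through the axial sums. Its axial UMIs came from 10 of the 72 cells, so it marks a part of that class. Both genes were named because they passed on these same sums. Cer1 was thus higher in axial-mesoderm-like cells of each embryo, where Dand5 was lower. Nodal was lower there too, but its values overlapped between the classes and its call did not hold under each alternative. In the split of LRO cells none of the 13 tested genes passed with edgeR or DESeq2. At an unadjusted p under 0.05 edgeR had 3 of the 13, against 640 of 9008 genes. They were Furin, Acvr1b and Cer1, with edgeR adjusted p of 0.527, 0.653 and 0.527. With the replicate block Cer1 was called (−1.67, edgeR adjusted p = 0.0185), where 153 of 9008 genes fell.

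**Figure D5:**
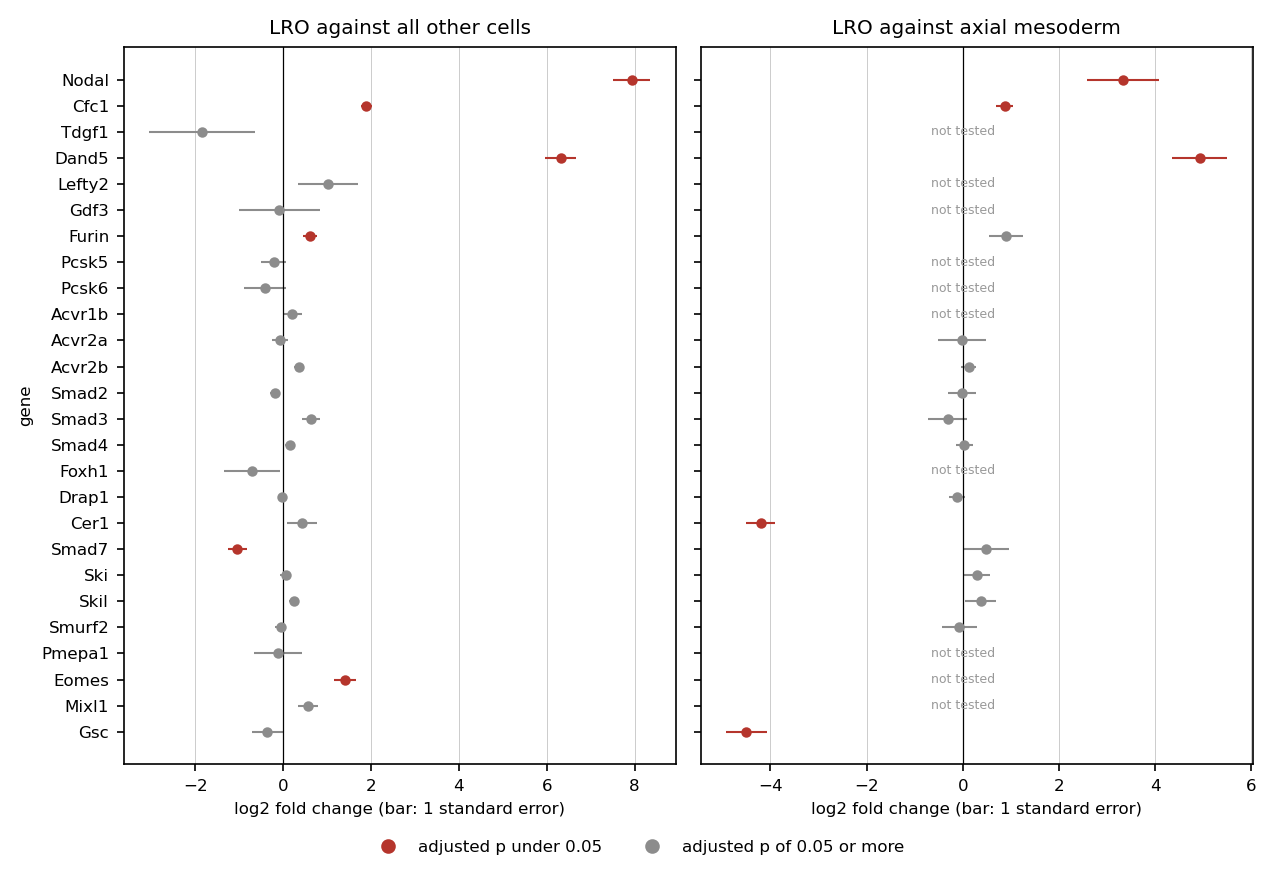
Log2 fold change (x axis, bar of 1 standard error) of the members and the pathway list (y axis) in LRO cells against all other cells and against axial-mesoderm-like cells, from edgeR on sums of 3 embryos. Red marks an adjusted p under 0.05. On the left Nodal, Dand5, Cfc1, Furin and Eomes rose and Smad7 fell, and on the right Nodal, Dand5 and Cfc1 rose and Cer1 and Gsc fell.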

How the data were processed

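Single-cell RNA was measured in 3 embryos, each 1 library. Per the labels and the study's methods, the authors used Cell Ranger (version 3.1.0) with an mm10 reference that included EGFP. The deposited values are raw UMI counts per feature and barcode, not normalized. The members and lists were chosen with earlier results of these data known. The limits on marker scores and on mitochondrial share were set after the marker and mitochondrial values were seen, without using the members' values.

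Cells were kept with at least 1500 genes, at most 8500, 7500 and 8500 genes in embryos 1, 2 and 3, and between 0.5% and 10% mitochondrial UMIs, and the lower mitochondrial limit removed 573 barcodes. Kept cells held 191843539, 144790573 and 165506028 UMIs. LRO cells needed a UMI of 4 of 6 markers. For the other classes, each marker was scaled by its mean in the 200 highest cells, the scaled markers of a list were averaged, and a cell joined a class with a score of at least 0.25, a lead of 0.08 over the next list and at least 3 markers with a UMI. Doublet scores from Scrublet (scanpy version 1.11.5) removed no cell in the main analysis, and 10 LRO cells were among the top 6% of scores.

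UMIs were summed per embryo and class, sums under 10 cells were left out, and edgeR (version 4.0.16, R version 4.3.3) was run with TMM, filterByExpr, glmQLFit and glmQLFTest at a Benjamini-Hochberg adjusted p of 0.05 over all genes tested. DESeq2 (version 1.42.0) was an alternative. P-values of the filtered fits measure the spread between the 3 embryos. Those with no filter on low counts are given for the call only. Classes of 1 embryo share an animal, so the samples are paired, and the deviations of an embryo's sums from their class means had correlations across genes of 0.253 to 0.359 (LRO against other cells), 0.0286 to 0.0873 (against axial-mesoderm-like cells) and 0.126 to 0.322 (the split of LRO cells). The embryo as a replicate block is given where it changed a call. Tested on simulated data with 3 sums per class, 77%, 82% and 74% of genes changed 2-fold were recovered in these 3 comparisons, and 3.8%, 3.19% and 0.575% of calls were false.

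CPM are UMIs per 1000000 UMIs of the summed cells, and a limit for 0 counts is 3 counts of the total. Limits and intervals (exact Clopper-Pearson, 95%) cover counting error only. Genes were named if they were members, on the list of 24 pathway genes (1 further gene of the list is not reported here), overlapped a member, or were among the 3 genes with at least 100 UMIs whose log2(CPM + 1) had the highest correlation with a member. Coordinates are from GENCODE (GRCm38), and promoter windows from RefSeq. Bulk RNA-seq of the study was not used here.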

Additional observations from a re-analysis of the deposited data

Results flagged for a closer look

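EGFP was not a measurement of the comparisons. It had a UMI in 23.4% of the 77 LRO cells of embryo 1 and 17.6% of the 108 LRO cells of embryo 3, above the 0 of 78 in embryo 2, although the labels call all 3 embryos wild-type. Its source was not tested. The barcodes removed for a low mitochondrial share, which entered no comparison, held 155 UMIs of Cfc1 in 98 of 573 barcodes (17.1%, 30.2 CPM) and 13 UMIs of Dand5 in 13 barcodes (2.53 CPM), above the limit of 0.584 CPM that a count of 0 allows there. Nodal had 0 UMIs in these barcodes, and their median was 7878 UMIs.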

How the results depend on the processing

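Of the results for single genes, 750 alternative values kept their side of the threshold. Values that passed in neither fit were counted there whatever their direction, as for Cfc1 in the split of LRO cells, which changed sign. The 750 also include alternatives that left a fit unchanged and could not move a call. Examples are 3 LRO markers for allantois-like cells and leaving out embryo 1, which had no erythroid-like cells, for that class. Alternatives in which a gene was no longer tested were not counted. Of the called results, 97 alternative values kept the direction but no longer passed, and 6 changed direction. Members called between LRO and axial-mesoderm-like cells numbered 3, and 1 to 3 when an embryo was left out. Pairs of member and class that rose numbered 10, and 6 after thinning to 5000 UMIs. The pairs no longer there were Cfc1 in axial-mesoderm-like and allantois-like cells, Lefty2 in paraxial-mesoderm-like cells and Lefty1 in erythroid-like cells. Pairs that fell numbered 36, 18 after thinning, 15 to 27 without 1 embryo (22 without embryo 1 and 15 without embryo 3) and 12 with LRO cells left out of the rest. Over all genes, LRO against other cells gave 2798 calls and 4814 with the replicate block, and the split of LRO cells gave 30 and 362. Thinning moved the share of LRO cells with a UMI to 26.3% for Nodal, 47.3% for Cfc1, 31.3% for Dand5 and 0% for Lefty2, and the share for Cfc1 was 82.7% with 3 markers and 93.0% with 5. With LRO cells left out of the rest, Dand5 changed direction in extraembryonic-endoderm-like (0.28), mesenchyme-like (0.014), presomitic-mesoderm-like (0.26) and caudal-epiblast-like cells (0.45). With 5 LRO markers required, Nodal (0.050) and Dand5 (0.17) changed direction in presomitic-mesoderm-like cells. With LRO cells left out, the rest holds fewer Nodal and Dand5 UMIs by construction. With 5 LRO markers required, the 46 cells with 4 left the LRO class and could join others. Of these cells 32.6% had a Nodal UMI and 47.8% a Dand5 UMI, and their part in the changes was not tested. With the replicate block, no call of a member, and none of the pathway list in the LRO comparisons, changed beyond those given with the results. Erythroid-like and primordial-germ-cell-like cells had sums of 2 embryos, so leaving 1 out could not be fitted with a spread within the class.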

Other observations

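Most genes of the pathway list had their highest mean in a class outside the LRO, and some of them are given here. Gdf3, a ligand related to Gdf1, was 70.2 ± 19.8 CPM in primordial-germ-cell-like cells (2 embryos) and 1.66 CPM in the next class, surface-ectoderm-like cells. The antagonist Cer1 was 222 ± 87.7 CPM in axial-mesoderm-like cells and 48.1 in paraxial-mesoderm-like cells. Furin was highest in extraembryonic-endoderm-like cells (53.3 CPM), with 29.1 CPM in the next class, cardiac-mesoderm-like cells. Smad7 was 111 CPM in allantois-like cells and 105 ± 29.8 in primordial-germ-cell-like cells (2 embryos). Mixl1 was 13.7 CPM in caudal-epiblast-like cells and 13.2 ± 5.69 in presomitic-mesoderm-like cells. Neither Smad7 nor Mixl1 thus had a clear leading class. These are descriptions of levels, and the order of classes was not tested.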
